A study of Mus musculus with 5 samples.

Results

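Granzymes, perforin and Fas ligand are the molecules with which killer lymphocytes destroy other cells, and 7 of their genes were followed here: Gzma, Gzmb, Gzmc, Gzmk, Gzmm, Prf1 and Fasl. They were chosen by name, and all 7 were found among the 27998 genes of the table. RNA of single CD45+ immune cells from 3 mice was counted, taken in each mouse from the tumour, the lymph node that drains it and another lymph node that does not. Each mouse had received 1 antibody: nivolumab as mouse IgG1 with the D265A exchange, nivolumab as mouse IgG1, or the isotype control MOPC21. Nivolumab is an antibody to human PD-1, an inhibitory receptor. Pdcd1 is the mouse gene of this receptor, and whether the antibody bound its product was not tested. The labels name no mouse strain, age or tumour line.

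The 9 samples carried hashtag antibodies and were run as 1 pool, and which hashtag belongs to which mouse or site is stated nowhere in the labels. They are called populations 1 to 9, by the order of the hashtag rows, and neither sites nor antibodies were compared. No group has a replicate, so no test was run. Levels are unique molecular identifiers (UMIs) of a gene per 1000000 UMIs of the cells named (CPM). Intervals are 95%, exact Poisson for levels and conditional exact binomial for ratios, and cover counting error only.

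Of 21624 barcodes, none listed more than once, 21094 entered as single cells with 1 hashtag, 2051 to 2550 in each population, with a median of 3374 to 10662 UMIs a cell. Cells were sorted by marker UMIs into 510 natural killer (NK) cells, 1074 CD8 T cells with a Pdcd1 UMI and 2805 without, 350 Foxp3-positive T cells, 2013 Foxp3-negative CD4 T cells, 3049 monocytes and macrophages, 6182 B cells and smaller classes. Genes that no gate used mostly went with the names. Klra8, an NK receptor gene, was at 399.8 CPM in NK cells and at most 0.92 in the classes of CD8, CD4 and Foxp3-positive T cells. Ikzf2, a regulatory T cell gene, was at 987 CPM in Foxp3-positive T cells and 92.8 in Foxp3-negative CD4 T cells. Lag3, an inhibitory receptor gene, was at 857 CPM in CD8 T cells with Pdcd1 and 45.1 in those without. Other genes were less particular. The T cell genes Lck and Cd28 were at 377 and 149 CPM in NK cells, and Tox, a factor of exhausted T cells, was at 201 CPM in CD8 T cells with Pdcd1 and at 291 CPM in Foxp3-negative CD4 T cells. Gamma-delta T cells were not gated, and 2974 cells (14.1%) fell in no class. At least 20 NK cells, or 20 CD8 T cells with Pdcd1, were found only in populations 1, 4 and 7, where the NK cells numbered 137, 240 and 93 and the CD8 T cells with Pdcd1 569, 306 and 143.

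Cytotoxic lymphocytes store granzymes, which are serine proteases, together with the pore-forming protein perforin in granules, and release them at the contact with a target cell. Perforin lets granzymes reach the target's cytosol, where granzyme B cleaves caspases and other substrates after aspartate and granzymes A and K cut after basic residues. Fas ligand is a membrane protein of the tumour necrosis factor family that starts death through the receptor Fas on the target, without granules. Regulatory T cells are also known to use granzyme B in mouse tumours.

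On the GRCm38 build Gzmb (chr14:56258838-56262260, minus strand) and Gzmc (chr14:56231441-56234656, minus strand) lie 24.2 kb apart with no protein-coding gene annotated between them. The same holds for Gzma (chr13:113093825-113100981, minus strand) and Gzmk (chr13:113171608-113225908, minus strand), 70.6 kb apart. Gzmm (chr10:79689020-79695261) and Prf1 (chr10:61297833-61304680) are on the plus strand of chromosome 10 and Fasl (chr1:161780689-161788495) on the minus strand of chromosome 1. In their coding sequences Gzmb and Gzmc were 76.6% identical over aligned bases, and their neighbours Gzmd and Gzme 94.8%, so reads of the last pair may have been split or left out in the authors' counting and their values are uncertain. The 250 bases before the RefSeq start site (GRCm38.p6) are shown for Gzma, Gzmb, Gzmc and Prf1, the members with the most UMIs. The windows are chr13:113100982-113101231, chr14:56262335-56262584 and chr14:56234658-56234907 on the minus strand and chr10:61297586-61297835 on the plus strand, each written 5′ to 3′ towards the gene. Capitals mark matches on either strand to TGTGGT (RUNX), GGTGTG (T-box), TGANTCA (AP-1) or AGGAAG (ETS).
Gzma: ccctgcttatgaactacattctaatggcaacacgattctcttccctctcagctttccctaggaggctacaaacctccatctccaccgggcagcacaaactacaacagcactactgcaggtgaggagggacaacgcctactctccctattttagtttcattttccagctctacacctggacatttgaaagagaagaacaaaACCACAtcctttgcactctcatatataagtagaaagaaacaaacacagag
Gzmb: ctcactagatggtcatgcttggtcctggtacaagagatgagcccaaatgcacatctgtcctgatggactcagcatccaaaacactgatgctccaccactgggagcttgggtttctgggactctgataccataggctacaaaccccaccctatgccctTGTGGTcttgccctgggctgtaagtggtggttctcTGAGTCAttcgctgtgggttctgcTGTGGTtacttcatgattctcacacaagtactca
Gzmc: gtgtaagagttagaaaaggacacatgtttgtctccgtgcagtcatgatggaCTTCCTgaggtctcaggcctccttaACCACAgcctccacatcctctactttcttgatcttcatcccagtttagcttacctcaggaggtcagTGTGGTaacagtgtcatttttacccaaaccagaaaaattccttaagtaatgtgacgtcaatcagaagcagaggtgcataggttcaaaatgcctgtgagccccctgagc
Prf1: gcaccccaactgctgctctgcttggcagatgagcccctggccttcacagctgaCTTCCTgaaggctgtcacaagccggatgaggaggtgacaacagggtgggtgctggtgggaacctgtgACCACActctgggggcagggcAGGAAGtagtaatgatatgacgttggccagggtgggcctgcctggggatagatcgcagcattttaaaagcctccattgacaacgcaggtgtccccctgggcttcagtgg
Windows of all 7 genes were searched, and 5 held the RUNX letters (Gzma, Gzmb, Gzmc, Gzmm and Prf1), which 14.1% of the 32851 windows of all genes also held. The T-box letters were in 2 (16.3% of all windows), the AP-1 letters in 1, Gzmb (6.75%), and the ETS letters in 4 (29.5%). The Gzmk window starts from a RefSeq start 44943 bases from the GENCODE start used for its position. A match is a run of letters, not a shown binding site.

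The 7 genes divided by cell type. With all populations pooled, Gzmb, Gzmk and Prf1 were highest in CD8 T cells with Pdcd1 and Gzma and Gzmc in NK cells. Gzmm was highest in CD8 T cells without Pdcd1, while the intervals of Fasl overlapped between NK cells and CD8 T cells with Pdcd1. Within populations that held both CD8 classes, Gzmk was level or lower with Pdcd1, as given below. The Gzmm interval overlapped with that of cells with Cd3 and NK receptors. Of all 41015 Gzmb UMIs 65.3% lay in CD8 T cells with Pdcd1, and of all 2598 Gzmk UMIs 71.7%. Of all 27341 Gzmc UMIs 67.5% lay in NK cells and 10.4% in 121 cells with Cd3 and NK receptor UMIs. These 121 cells had no Cd4 or Foxp3 UMI and at most 1 Cd8 UMI. Gzma was shared between NK cells (48.2% of 20759 UMIs) and CD8 T cells with Pdcd1 (32.5%).

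**Figure D1:**
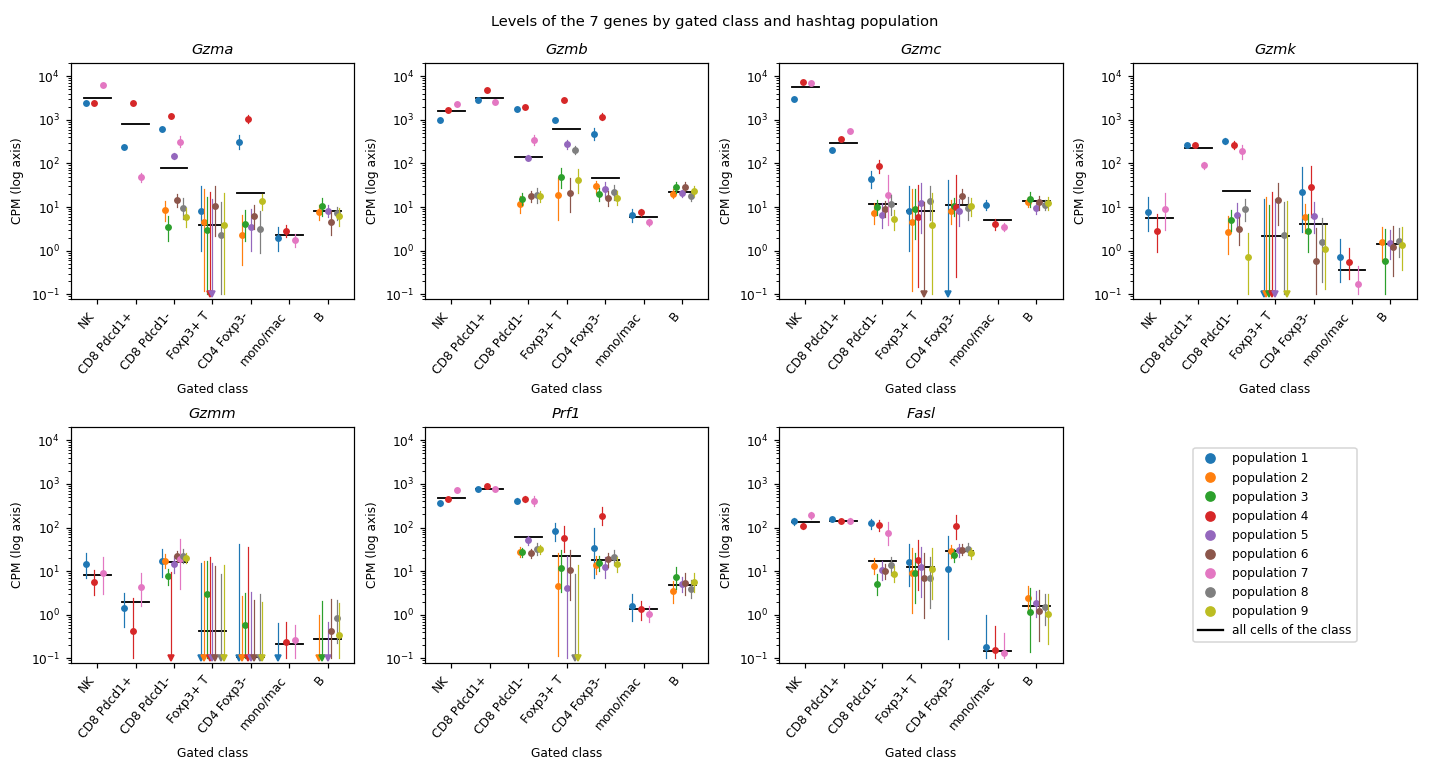
Levels in CPM (log axis) of each gene by gated class; each point is 1 hashtag population with at least 20 cells of the class, bars are 95% Poisson intervals, black lines all cells of the class, and triangles populations with no UMI. The black lines of 6 genes are highest in NK cells or CD8 T cells with Pdcd1, and that of Gzmm in CD8 T cells without Pdcd1. In single populations the Gzmk point without Pdcd1 can lie above that with it.

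Levels in B cells were taken as a floor under the others. Whether the UMIs there come from free RNA in the droplets or from another source was not tested. B cells, in which these genes are not usually expressed, carried 22.3 CPM of Gzmb (20.3 to 24.4), 14.0 of Gzmc, 8.24 of Gzma, 4.91 of Prf1, 1.62 of Fasl, 1.43 of Gzmk and 0.286 of Gzmm. Per cell the Gzmb background was close in B cells (0.0757 UMIs) and in the deeper monocytes and macrophages (0.0817 UMIs). In CPM it was lower in monocytes and macrophages, at 6.01 against 22.3, so the floor in CPM was not the same in classes of unlike depth. Monocytes and macrophages carried 0.145 CPM of Fasl and 0.217 of Gzmm. Levels at or below those of B cells are read as background, though the floor may be lower in deeper classes.

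Gzmb, the main executioner protease of mouse T cells, was at 1006, 1707 and 2291 CPM in NK cells of populations 1, 4 and 7, and at 2881, 4848 and 2589 CPM in CD8 T cells with Pdcd1 of the same populations. NK cells were below the CD8 T cells in each of the 3 populations. Prf1, which encodes perforin, was at 359, 460 and 716 CPM in NK cells and at 781, 911 and 786 CPM in CD8 T cells with Pdcd1, so NK cells were again below in each population, in population 7 by less than counting error. Both genes were found in most cells: 79.5% of CD8 T cells with Pdcd1 had a Gzmb UMI and 76.3% a Prf1 UMI, against 6.6% and 1.62% of B cells (median depths 6909 and 3030.5 UMIs).

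Gzma, a tryptase that induces death by other routes than granzyme B, was at 2483, 2394 and 6196 CPM in NK cells of populations 1, 4 and 7. In CD8 T cells with Pdcd1 it was at 242, 2458 and 48.9 CPM, so these cells of population 4 lay about level with NK cells and those of population 7 far below them. The CD8 T cell signal came from few cells. The 10% of CD8 T cells with Pdcd1 richest in Gzma held 93.2% of its UMIs, against 56.9% for Gzmb, 50.5% for Prf1, 48.7% for Gzmk and 37.4% for Fasl.

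Gzmc, a granzyme of mice with no direct human counterpart, was at 2965, 7225 and 6911 CPM in NK cells of populations 1, 4 and 7 and at 201, 364 and 564 CPM in CD8 T cells with Pdcd1. Its UMIs sat in few cells, and 10% of the cells held 97.0% of its UMIs in CD8 T cells with Pdcd1 and 81.9% in NK cells. In NK cells of population 7 this reached 97.9%, and 11 of 93 cells had 10 or more Gzmc UMIs, against 89 of 240 in population 4 and 23 of 137 in population 1. Cells with Cd3 and NK receptors carried 3862 CPM of Gzmc (3721 to 4007), at 1738 CPM in population 1 and 5401 CPM in population 4, and 17 of these 121 cells had 10 or more UMIs.

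Gzmk, a tryptase of early and memory-like CD8 T cells, stayed with the CD8 lineage. CD8 T cells with Pdcd1 carried 266, 269 and 90.7 CPM in populations 1, 4 and 7. CD8 T cells without Pdcd1 lay level with them or above in each, as given below. NK cells of those populations carried 7.78, 2.90 and 9.25 CPM, on 6, 5 and 5 UMIs. Foxp3-positive T cells had 5 Gzmk UMIs in 350 cells, 4 of them in population 6.

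Gzmm, a protease that cuts after methionine and leucine and is best known from NK cells, went the other way. It was rare, with 355 UMIs in all, of which 66.2% lay in CD8 T cells without Pdcd1. CD8 T cells with Pdcd1 carried 2.01 CPM (1.17 to 3.22) and those without 16.6 CPM (14.5 to 18.8). Over the 9 populations the level without Pdcd1 ran from 0 (population 4, 80 cells, where 3 UMIs would be 7.88 CPM) through a median of 17.5 to 22.5 CPM. Cells with Cd3 and NK receptors carried 13.6 CPM (6.54 to 25.1) and NK cells 8.06 CPM (5.27 to 11.8). Foxp3-negative CD4 T cells had 1 Gzmm UMI in 2013 cells, and B cells 6 in 6182.

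Fasl, the ligand of the Fas receptor, was at 140, 110 and 192 CPM in NK cells and 157, 142 and 144 CPM in CD8 T cells with Pdcd1 of populations 1, 4 and 7. Outside these classes it was not confined to cells with granzymes. Foxp3-negative CD4 T cells of populations 2, 3, 5, 6, 8 and 9 carried 28.4, 23.2, 30.5, 31.5, 32.7 and 25.6 CPM of Fasl, and CD8 T cells without Pdcd1 of the same populations 13.3, 5.18, 10.8, 9.98, 13.6 and 8.79 CPM. The CD4 T cells were above these CD8 T cells in all 6, and their intervals did not overlap in any of them. This comparison was chosen after the values were seen. Only the CD8 T cells were split by Pdcd1, so the CD4 T cells include those with a Pdcd1 UMI. What this adds to the difference was not tested. B cells of these 6 populations carried 1.02 to 2.38 CPM. Fas itself ranged less, at 26.9 CPM in CD8 T cells with Pdcd1, 30.2 in those without, 41.9 in Foxp3-negative CD4 T cells, 18.9 in monocytes and macrophages and 61.2 in dendritic cells.

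In these 6 populations, each with at least 20 B cells, Pdcd1-negative CD8 T cells carried perforin and Fas ligand RNA but little granzyme B. Prf1 was at 28.2, 27.3, 51.5, 26.1, 32.7 and 31.6 CPM in them, against 3.44 to 7.47 CPM in B cells. Gzmb was at 11.7, 15.5, 18, 19.1 and 17.6 CPM in populations 2, 3, 6, 8 and 9, against 17.8 to 29.6 CPM in B cells, and is read as background. In population 5 it was at 136 CPM, with 2 of 270 cells holding 10 or more UMIs. Gzmc, at 5.27 to 11.6 CPM, was at background in all 6.

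CD8 T cells with Pdcd1 were then set against those without. Of the 7 genes 6 were at least 2-fold higher and 1, Gzmm, at least 2-fold lower, where 13.1% of 10352 genes were higher by the same rule and 9.11% lower (a ratio of at least 2 or at most 0.5 whose interval leaves out 1). Gzmc was 25-fold higher (21.4 to 29.5), Gzmb 22.4-fold (21.4 to 23.4), Prf1 12.8-fold, Gzma 10.1-fold, Gzmk 9.26-fold and Fasl 8.28-fold. Without population 1 the ratio of Gzma was 22.1 and that of Gzmb 40, and without population 4 that of Gzma was 3.74. The median log2 ratio was 3.33 over the members and 0.09 over all genes. The cells lay in different populations: populations 1, 4 and 7 held 569, 306 and 143 of the 1074 cells with Pdcd1 and 98, 80 and 29 of the 2805 without. Cells with Pdcd1 were also deeper, with a median of 6909 UMIs against 4781. With all gates read on cells thinned to 1500 UMIs the same 6 genes were higher and Gzmm lower, but the ratios were smaller. They were at 4.84 for Gzmc, 3.91 for Gzma, 3.13 for Gzmb, 2.59 for Prf1, 2.55 for Gzmk and 2.50 for Fasl. Thinning also drops Pdcd1 UMIs, so cells that had them can fall in the class without. Among cells of 5000 to 10000 UMIs with full gates Gzmb was at 25.5, Gzmk at 15.6, Prf1 at 12.5, Gzmc at 11.9, Fasl at 10.3 and Gzma at 8.73. NK receptor genes of the gate summed to 199 CPM in CD8 T cells with Pdcd1 and 19.5 CPM in those without, with 3 of 3 detected in both, against 1279 CPM in NK cells.

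Within those 3 populations the ratios were smaller, except that of Gzmc in population 7. Prf1 was 1.88-, 2.01- and 1.91-fold higher in populations 1, 4 and 7, and Gzmb 1.66-, 2.51- and 7.45-fold. Gzmc was 4.56-, 4.2- and 29.7-fold higher, the last on 3 UMIs in cells without Pdcd1. Fasl ratios were 1.26, 1.26 and 1.90, and only the last interval left out 1. Gzmk ran the other way or level, at ratios of 0.816 (0.689 to 0.971), 1.02 (0.827 to 1.28) and 0.478 (0.319 to 0.737). Gzma was lower with Pdcd1 in populations 1 and 7 (0.389 and 0.155) and higher in population 4 (2.01). Pooled over these populations alone, the ratio was 5.59 for Gzmc, 2.13 for Gzmb, 1.91 for Prf1, 1.33 for Fasl, 1.07 for Gzma and 0.837 for Gzmk. Gzmm had too few UMIs there for a ratio.

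In the pooled comparison 4 of 4 measured other granzymes and 4 of 4 serpins that inhibit granzymes were higher. By the same rule 13.1% of all genes were higher and 9.11% lower. The ratios below are pooled over unlike populations, and values within populations are not given for these genes. Most ratios of the members were smaller within populations. Gzmf was at 1411 CPM with Pdcd1 and 27.0 without (52.3-fold), and Serpinb9, the inhibitor that shields killer cells from their own granzyme B, at 210 and 19.5 CPM (10.8-fold). Of 10 exocytosis genes 4 were higher, among them Nkg7, a granule membrane protein (4.97-fold), and Stx11, a fusion syntaxin (9.58-fold), and 6 were neither. Of the transcription factors 5 of 7 were higher, among them Tbx21, which encodes T-bet (9.30-fold). Of the genes for granzyme activation and storage 1 of 4 was higher (Srgn, the granule proteoglycan, 2.07-fold), and of the death receptor genes 2 of 8 were higher and 1 lower. Gzmn, the fifth of the other granzymes, had no UMI in any class.

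NK cells differed from CD8 T cells with Pdcd1 in which granzymes they carried. Of 6 genes with enough UMIs 2 were at least 2-fold higher in NK cells, Gzmc (19.6-fold, 18.8 to 20.4) and Gzma (3.88-fold, 3.76 to 4.00), where 6.89% of 9521 genes were higher. Another 2 were at least 2-fold lower, Gzmk (0.0253, 0.0150 to 0.0401) and Gzmb (0.494, 0.480 to 0.510), where 7.7% were lower. Prf1 was at 0.617 and Fasl at 0.962 of the CD8 T cell level. The median log2 ratio was -0.38 over the 6 and 0.02 over all genes.

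The Gzmc and Gzmk differences held in each population with both classes. Gzmc was 14.7-, 19.9- and 12.3-fold higher in NK cells of populations 1, 4 and 7, and Gzmk was at 0.0293, 0.0108 and 0.102 of the CD8 T cell level. Gzma was 10.3-fold and 127-fold higher in NK cells of populations 1 and 7 but level in population 4 (0.974, 0.935 to 1.01). Without population 4 its pooled ratio was 21.9 and without population 1 it was 2.46. Gzmb was at 0.349 and 0.352 in populations 1 and 4 and at 0.885 (0.829 to 0.944) in population 7, and Prf1 at 0.460, 0.505 and 0.911. The Gzmb ratio passed 0.5, and so lost its call, without population 1 or without population 4 (0.505 and 0.554).

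**Figure D2:**
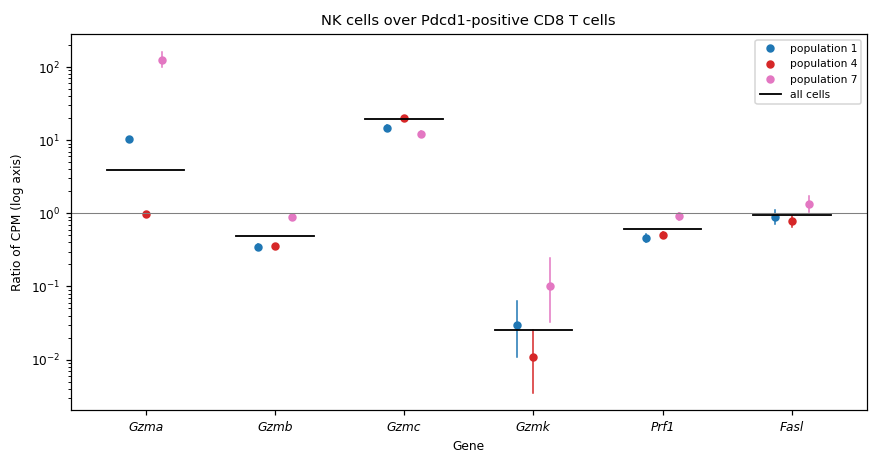
Ratio of CPM (log axis) of NK cells over CD8 T cells with Pdcd1 for 6 genes in populations 1, 4 and 7, with 95% intervals, and over all cells (black lines). Gzmc lies between 12.3 and 19.9 and Gzmk below 0.102 or at it in all 3, while Gzma runs from 0.974 to 127.

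Other genes of the pathway also divided the classes. Gzmf was lower in NK cells (434 CPM, against 1411 in CD8 T cells with Pdcd1), while Gzmd (624 against 288) and Gzmg (53.0 against 13.5) were higher, and Gzme was neither. The higher Gzmd and Gzmg rested on population 7, where the ratio of Gzmd was 15.2, against 1.80 and 0.961 in populations 1 and 4. NK cells had 0, 2 and 169 Gzmg UMIs in populations 1, 4 and 7, and CD8 T cells with Pdcd1 101, 13 and 0. Gzmf stood at 0.243 and 0.122 in populations 1 and 4 and at 1.55 in population 7. Serpinb9 was 2.10-fold and Serpinb9b, a related inhibitor, 2.79-fold higher in NK cells. Eomes, a T-box factor of NK cells, was 12.5-fold higher (178 against 14.2 CPM) with Prdm1 lower (0.473), and the other 5 transcription factors were neither. Of 10 exocytosis genes Stx11 was lower (0.446) and none higher.

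Within NK cells Gzma and Gzmc were found together less often than their shares would give in 2 of 3 populations after thinning to 1500 UMIs, in 1 of 3 after thinning to 3000 and in none without. After thinning each cell to 1500 UMIs, Gzma and Gzmc were found in the same cell in 7.20% (3.66 to 13.4, exact Clopper-Pearson), 20.8% (15.8 to 26.5) and 9.84% (4.62 to 17.9) of NK cells in populations 1, 4 and 7. The product of their 2 shares was 15%, 28.2% and 17%, above the interval in populations 1 and 4 and inside it in population 7. At 3000 UMIs the joint share was 13.2% against a product of 21.8% in population 1, still below it, and 28.7% (22.6 to 35.3) against 35% in population 4, with the product inside the interval. Without thinning the joint shares were 13.9%, 32.5% and 20.4%, against products of 20.6%, 37.4% and 27.2%, all inside their intervals. Gzma and Gzmb were found together more often than their product in the same 2 populations, in 36.8% and 42.1% of thinned cells against 25.8% and 33.2%. Over all gene pairs and the 3 populations 2 values were above their product, 2 below it and 41 inside the interval.

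NK cells with 10 or more Gzmc UMIs (123 cells) and those with none (314 cells) were therefore described apart. The 10 UMIs and the genes below were chosen after the Gzma and Gzmc pattern had been seen. Gzma was at 1019 CPM in the cells with Gzmc and 4847 CPM in those without (ratio 0.210, 0.198 to 0.223), and at ratios of 0.0424, 0.291 and 0.0617 in populations 1, 4 and 7. Gzmb had a pooled ratio of 0.945, but was lower in populations 1 and 7 (0.203 and 0.467) and higher in population 4 (1.24). Prf1 had a pooled ratio of 0.898, and was at 0.571, 1.14 and 0.709 in populations 1, 4 and 7. Its interval left out 1 in populations 1 and 7 only. Fasl had a pooled ratio of 0.401. The neighbours of Gzmc rose with it: Gzmf was 74.7-fold higher (47.6 to 124), and Gzmd had 1969 UMIs in the cells with Gzmc and 2 in those without.

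Receptors and factors of the NK lineage differed as well. Eomes had a ratio of 0.497 and Klra8 of 0.445, and Itga2, the integrin known as CD49b, of 0.145 (17 UMIs in the cells with Gzmc). Itga1, the integrin CD49a, was 2.28-fold (1.67 to 3.14) and Tnfsf10, which encodes TRAIL, 2.76-fold higher (1.87 to 4.14), while 2 other genes known from type 1 innate lymphoid cells were lower, Il7r at 0.501 (0.327 to 0.756) and Cd200r1 at 0.0936 (0.0107 to 0.381), and Cxcr6 was at 0.773 (0.395 to 1.48). The directions of Eomes, Klra8, Itga1 and Tnfsf10 were the same in populations 1, 4 and 7. The NK gate allowed at most 1 Cd3 UMI a cell, so the Cd3 genes were low in both sets of cells by the gate. They were at 1.46 to 5.09 CPM in the cells with Gzmc and 4.24 to 15.5 CPM in those without. Under such a limit deeper cells have lower Cd3 CPM, so these levels are not compared. Cells with Gzmc were deeper, with a median of 10430 UMIs against 3874, and between 5000 and 10000 UMIs (53 and 89 cells) the ratio of Gzma was 0.453 (0.412 to 0.498) and that of Itga1 2.88.

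**Figure D3:**
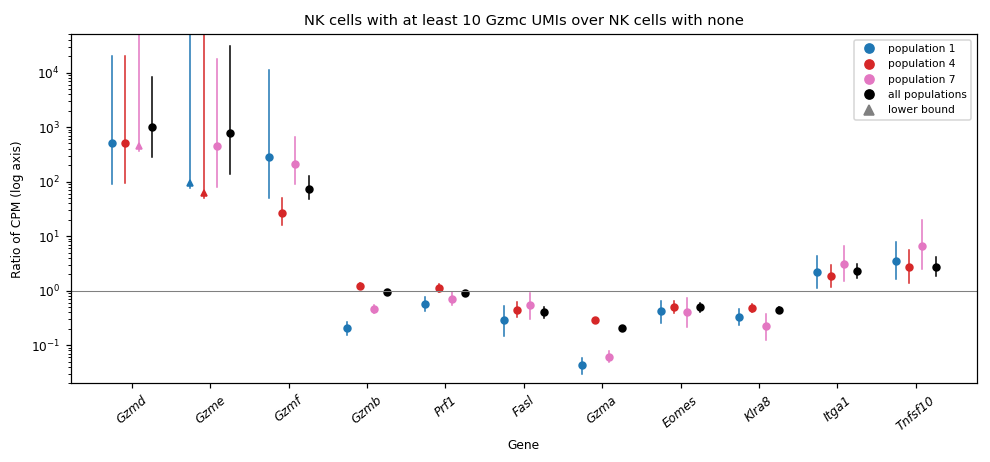
Ratio of CPM (log axis) of NK cells with at least 10 Gzmc UMIs over NK cells with none, by gene, in populations 1, 4 and 7 and in all cells, with 95% intervals; triangles are lower bounds set against 3 UMIs where the cells without Gzmc had none. Gzmd, Gzme and Gzmf lie far above 1 and Gzma, Eomes and Klra8 below it in each population.

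Foxp3-positive T cells carried granzyme B and little else of the killing genes. Gzmb was at 624 CPM (592 to 657) in them and 46.9 CPM (42.6 to 51.6) in Foxp3-negative CD4 T cells, 13.3-fold higher (11.9 to 14.8), the only 1 of 5 genes with enough UMIs to be at least 2-fold higher, where 10.8% of 9505 genes were. Gzma (0.187) and Fasl (0.424, 0.279 to 0.623) were at least 2-fold lower, where 4.07% were. Prf1 was at 22.0 and 18.5 CPM (1.19, 0.853 to 1.64) and Gzmc at 8.20 and 10.9 CPM (0.751), and both Gzmc levels were below the 14.0 CPM of B cells. The NK receptor genes of the gate summed to 0.432 CPM in Foxp3-positive T cells, with 1 of 3 detected.

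Foxp3-positive T cells carried 991, 18.5, 48.3, 2919, 275, 21.4, 205 and 41.9 CPM of Gzmb in populations 1, 2, 3, 4, 5, 6, 8 and 9. Foxp3-negative CD4 T cells of the same populations carried 483, 29.9, 19.8, 1187, 26.0, 16.3, 22.3 and 16.3 CPM. The Foxp3-positive cells were above the others in 7 of 8 populations, with an interval of the ratio above 1 in 6 (populations 1, 3, 4, 5, 8 and 9), and populations 2 and 6 lay at the level of B cells. Within populations the ratio was 2.05, 2.45 and 2.46 in populations 1, 3 and 4, and 10.6 and 9.19 in populations 5 and 8, where 3 of 29 and 4 of 45 Foxp3-positive cells had 10 or more UMIs. The pooled ratio of 13.3 is larger than each of these. Populations 1 and 4, highest in both classes, held 49 and 36 of the 350 Foxp3-positive and 27 and 26 of the 2013 other cells. With populations weighted equally the ratio was 2.51.

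**Figure D4:**
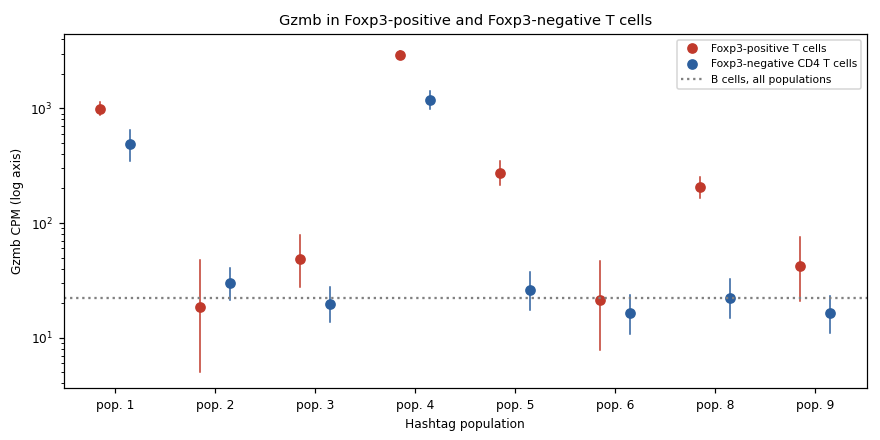
Gzmb in CPM (log axis) in Foxp3-positive T cells and in Foxp3-negative CD4 T cells of 8 populations, with 95% Poisson intervals; the dotted line is the level in B cells (22.3 CPM). Populations 1 and 4 are highest in both classes, and population 2 is the only one with the Foxp3-positive cells below.

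The lower Fasl in Foxp3-positive T cells was seen in 7 of 8 populations, at 7.07 to 17.6 CPM in those 7, on 2 or 3 UMIs in each. In population 1 it was at 16.4 CPM on 4 UMIs, against 11.2 CPM on 1 UMI in Foxp3-negative CD4 T cells. The Gzma value of the CD4 T cells rested on 1 cell of population 4, which held 106 of their 192 UMIs. NK receptor genes of the gate summed to 68.7 CPM in the CD4 T cells of that population, with 3 of 3 detected, and to 1.75 to 11.2 CPM in the others, and their part in these levels was not tested. Pooled over populations, 4 of 10 exocytosis genes were higher, Nkg7 6.09-fold, Stx11 4.12-fold, Ap3b1 2.12-fold and Rab27a 2.06-fold, and 6 were neither. By the same rule 10.8% of all genes were higher. Prdm1, the gene of the factor Blimp-1, was 10.4-fold and Tbx21 5.46-fold higher, and Eomes lower (0.138). No serpin of 3 measured and no gene of 4 for activation and storage passed 2-fold.

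Among CD8 T cells with Pdcd1, 765 with a Havcr2 UMI, the gene of the inhibitory receptor Tim-3, were set against 309 without. Of 6 genes 4 were at least 2-fold higher and none lower, where 1.46% of 8806 genes were higher and 2.02% lower. Gzmc was 5.01-fold (4.23 to 5.97), Prf1 3.60-fold, Gzma 3.29-fold and Gzmb 3.24-fold higher, while Gzmk (1.39) and Fasl (1.08) were neither. In populations 1, 4 and 7 Prf1 was 3.07-, 2.85- and 3.00-fold higher, at 909, 994 and 990 CPM with Havcr2 and 296, 348 and 330 CPM without. Gzmb was 2.25-, 2.25- and 3.70-fold higher. Gzma was 1.62- and 1.76-fold higher in populations 1 and 4 and 15-fold in population 7, there on 2 UMIs without Havcr2, and with populations weighted equally it came to 1.78 and lost its call. Gzmk stood at 1.09, 0.95 and 1.10, with intervals that held 1 in each.

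With all gates read at equal depth in every cell, none of these ratios reached 2. Thinning also drops Havcr2 UMIs, so cells that had them can fall in the class without. The part of depth cannot be told apart from this. Cells with Havcr2 were deeper (medians of 7444 and 5478 UMIs), and with all gates read on cells thinned to 1500 UMIs Prf1 came to 1.57, Gzmc to 1.33, Gzma to 1.32 and Gzmb to 1.17. Among cells of 5000 to 10000 UMIs with full gates 3 passed, Gzma at 10.6, Prf1 at 2.54 and Gzmb at 2.13, and Gzmc came to 1.70. The other granzymes moved with the members, 4 of 4 measured, among them Gzmd (8.26-fold) and Gzmf (4.22-fold). No measured gene of the other lists passed 2-fold.

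**Figure D5:**
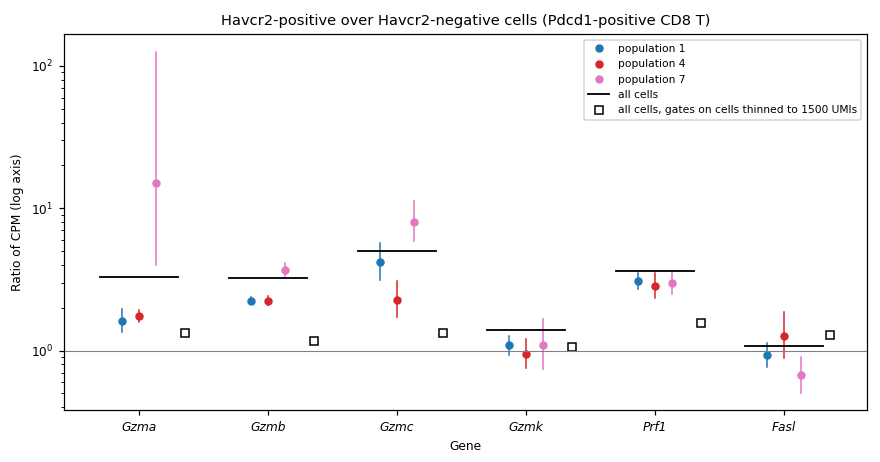
Ratio of CPM (log axis) of CD8 T cells with Pdcd1 and Havcr2 over those with Pdcd1 alone, in populations 1, 4 and 7 with 95% intervals, over all cells (black lines) and with gates read on thinned cells (open squares). Prf1 lies at 2.85 to 3.07 in the 3 populations and at 1.57 with thinned gates. Gzmk lies near 1 in the 3 populations and at 1.39 over all cells.

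Cycling cells among CD8 T cells with Pdcd1 (175 cells with at least 2 UMIs of Mki67, Top2a, Birc5 and Ccnb2, against 899 others) showed no member at least 2-fold higher or lower, where 7.71% of 8806 genes were higher and 1.82% lower. Gzmb was at 0.831, Prf1 at 0.708, Fasl at 0.724, Gzma at 0.699 and Gzmk at 0.798 of the level in other cells. Gzmc was 1.93-fold higher, on unlike populations: 1.44 in population 1, 0.522 in population 4 and 10.8 in population 7. Without population 7 its ratio was 0.764, and without population 4 or 8 it passed 2-fold (3.17 and 2.14).

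In thinned CD8 T cells with Pdcd1, pairs of members mostly met as often as the product of their shares. Over all pairs and populations 3 values were above the product and 42 inside the interval. Gzma and Gzmk met in 4.65% and 13.9% of cells of populations 1 and 4, against products of 2.63% and 9.21%. Gzmb and Prf1 met in 38.2% of cells of population 1, against 34.0%.

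Across 48 sets of cells (a class in a population, with at least 30 cells), the genes, out of 10595 with at least 300 UMIs, whose log2 level ran most like each member's were named by a fixed rule, as a description over sets that share 1 pool and differ in depth. Prf1 was most like Ifng, the gene of interferon gamma (Pearson r = 0.93), Gzmb like Tbx21 (0.93), and Gzmc like its neighbours Gzmd (0.93) and Gzme (0.92). Gzma was most like Gzmd (0.90), Fasl like Atp10a, a phospholipid flippase gene (0.92), and Gzmk like Wdr95 (0.87). Gzmm, the gene with fewest UMIs, had no gene above 0.75. Between members r ran from 0.15 for Gzmk with Gzmm to 0.86 for Gzmb with Prf1.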

How the data were processed

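RNA and hashtag tags of 1 pool of CD45+ cells were measured by 10x 5′ HT sequencing. Per the submitters' processing notes the authors used Cell Ranger 8.0.1 to count UMIs, on the mm10-1.2.0 reference, per the series' design text, and the deposited values are raw counts per gene and barcode. No source states if reads in introns were included. The 5 deposited libraries (4 of gene expression, 1 of hashtags) are parts of 1 pool and not biological samples, and no column of values was left unused. The labels and the tag table name different TotalSeq series.

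Barcodes with at least 500 UMIs, at least 200 genes and at most 20% mitochondrial UMIs were kept, 93 failed, and 184 doublets (0.855%, Scrublet in scanpy 1.11.5, expected rate 8%) and 253 cells with no clear hashtag were left out. Classes were gated on raw UMIs. T cells had at least 2 UMIs of Cd3d, Cd3e and Cd3g, CD8 T cells at least 2 of Cd8a and Cd8b1 without Cd4 or Foxp3, and NK cells at least 2 of Ncr1, Klrb1c and Klre1 with at most 1 of Cd3 and of Cd8. Foxp3-positive T cells had a Foxp3 UMI and CD4 T cells a Cd4 UMI without Foxp3, both with at most 1 Cd8 UMI, and B cells, monocytes and macrophages and dendritic cells were gated on their own marker lists. UMIs were summed over each class, and ratios were read with at least 50 UMIs in both classes together and called at 2-fold or 0.5 with an interval that leaves out 1. Single populations needed 20 cells of a class. Counts are of 5′ molecules, so levels were compared between classes and not between genes. The 7 genes and the gene lists were chosen, and the gate limits set, with earlier results of these data known. Named genes were all 7 members, from each list at most the 2 highest and 2 lowest ratios among called genes, and, per member, the 3 genes of highest correlation. The ratio, its interval and its call were tested on simulated data. These were Poisson sums of each class without differences between cells or populations, so the simulation covers counting error only. Alternatives are given in the closing section. Python 3.11.15, numpy 2.4.6, scipy 1.17.1, pandas 2.3.3, biopython 1.88 and matplotlib 3.10.9 were used. Promoter sequences are from RefSeq and gene positions from GENCODE vM21. The values of 1 gene of the death receptor list are not reported here.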

Additional observations from a re-analysis of the deposited data

Results flagged for a closer look

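A population was taken up here where its level lay apart from all others of its class by a wide gap. Of 22 pairs of gene and class looked at 7 were taken up, several of them from the same cells. About 1 in 20 would be taken up by chance if populations were replicates. They are unlike samples and not replicates, so that rate does not apply here. Population 4 stood out in Foxp3-negative CD4 T cells, with only 26 cells. NK receptor genes of the gate summed to 68.7 CPM there, with 3 of 3 detected, and to 1.75 to 11.2 CPM in the other populations, and their part in these levels was not tested. Gzma was at 1059 CPM there and at most 315 elsewhere, with 106 of 108 UMIs in 1 cell. Gzmb was at 1187 CPM and at most 483 elsewhere, with 3 cells of 10 or more UMIs. Prf1 was at 186 CPM and at most 33.7 elsewhere, and Fasl at 108 CPM, on 11 UMIs, and at most 32.7 elsewhere.

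Gzmb in Foxp3-positive T cells of population 4 was at 2919 CPM and at most 991 elsewhere, with 15 of 36 cells at 10 or more UMIs. Gzmc in CD8 T cells without Pdcd1 was at 86.6 CPM in population 4 and at most 44.2 elsewhere. In T cells with no Cd4 UMI and at most 1 Cd8 UMI, Gzmc was at 61.5 CPM in population 1, with 14 of 17 UMIs in 1 cell. Elsewhere it was at most 31.9 CPM in these cells.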

How the results depend on the processing

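With T cells taken from 1 Cd3 UMI, 2 genes were higher in Foxp3-positive T cells in place of 1, the second being Gzmc (9.06). In NK cells 1 gene was lower in place of 2 with per-cell means, with mitochondrial and ribosomal genes out of the total and with thinned gates, and 1 to 2 with a population left out. In Foxp3-positive T cells 1 was lower in place of 2 with per-cell means and, chosen after seeing the data, in cells of 5000 to 10000 UMIs. In cycling cells 1 was higher in place of 0 with per-cell means, with populations weighted equally, with a limit of 1.5 and in populations with both classes, and 0 to 1 with a population left out. Thinned gates left 0 of 4 genes higher with Havcr2, and equal weights of populations 3 of 4, without Gzma (1.78). With populations weighted equally, or only populations with both classes (chosen after seeing the data), 2 in place of 6 genes were higher with Pdcd1, and 0 in place of 1 lower because Gzmm had too few UMIs for a ratio, and Gzmk reversed to 0.803 and 0.837. Of all alternative values, 223 counts, 166 levels and 469 ratios were the same and 19, 94 and 185 moved; the causes were not tested. Also added after seeing the data was a Foxp3 gate of 2 UMIs.

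No paired analysis was possible because nothing ties the hashtags to mice or sites and no group has replicates. Depth limits Gzmm (355 UMIs) and, outside CD8 T cells, Gzmk.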
